A study of Mus musculus with 2 samples.

Results

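The 10 genes examined here mark myeloid cells, and their windows were read in chromatin accessibility maps of the mouse urinary bladder. They are Irf8, Spi1, Cd14, Csf1r, Cx3cr1, Mrc1, Adgre1, Ptprc, Tyrobp and Lyz2, 10 of 21951 protein-coding genes in the GENCODE M21 annotation of mm10. They were chosen by name, as genes used to recognise these cells, with earlier results of these data known. In DNase-seq the enzyme DNase I cuts DNA wherever chromatin leaves it exposed. The tissue was whole bladder from B6CASTF1/J males at an age of 36 days, first-generation hybrids of a C57BL/6 and a castaneus parent. The study holds 1 group with 2 libraries, replicate 1 and replicate 2, each from a separate animal, and no second condition, so every value below is a description and no test between groups could be made. A peak is an interval in which the authors called accessible chromatin, and its height is the signal they deposited for it. The scale of the height is not stated, and replicate 1 had 38674 peaks and replicate 2 had 47661 in the shorter of the 2 peak lists of each library, which is the list used unless the longer one is named.

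Myeloid cells are the macrophages, monocytes, dendritic cells, granulocytes and mast cells. In the bladder wall, resident macrophages and dendritic cells lie in the connective tissue below the urothelium and between muscle bundles, where they take up debris and respond to bacteria. They form a minor part of the tissue beside urothelial, smooth muscle and stromal cells. The transcription factors PU.1, encoded by Spi1, and IRF8 act early in their lineage, and many genes that they control have promoters with few CpG dinucleotides that open in these cells and stay closed in most others. A map of whole tissue averages over all nuclei, so a gene that is open in few of them adds little signal.

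The sequences below show what stood at the open and the closed places. Each is given 5′ to 3′ in mm10 coordinates, on the plus strand except for Lyz2, and capitals mark bases inside footprints of both libraries, that is, short stretches that the authors called protected from the nuclease. The first pair sets the open stretch before the Irf8 start (chr8:120736141-120736357, 217 bases with 26 CpG dinucleotides) beside the stretch before the Lyz2 start (chr10:117282322-117282522, from the RefSeq promoter table of GRCm38.p6, 201 bases with 1 CpG), which held no peak and no capitals:
Irf8 upstream of the gene start: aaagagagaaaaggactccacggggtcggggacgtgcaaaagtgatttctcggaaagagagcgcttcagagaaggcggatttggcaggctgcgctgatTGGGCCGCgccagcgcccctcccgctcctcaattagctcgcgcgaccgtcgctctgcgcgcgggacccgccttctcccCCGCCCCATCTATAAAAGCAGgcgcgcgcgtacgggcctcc
Lyz2 upstream of the gene start: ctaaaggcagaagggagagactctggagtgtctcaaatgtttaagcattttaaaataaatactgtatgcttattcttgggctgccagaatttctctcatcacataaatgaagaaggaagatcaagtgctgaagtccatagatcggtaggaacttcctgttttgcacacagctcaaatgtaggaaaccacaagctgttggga
The second set holds accessible sites away from any start, named by the gene and by the distance in bases from its start to the middle of the site. They were picked, after their values were seen, from the sites with a stretch of capitals of at least 19 bases, and other sites with such a stretch are not shown. They lie at chr8:120796361-120796560, chr2:91115161-91115320, chr2:91101501-91101680, chr2:14295521-14295680, chr17:57335781-57335960, chr9:120020381-120020540, chr9:120073261-120073460 and chr1:138044641-138044820, in this order:
Irf8 +60102: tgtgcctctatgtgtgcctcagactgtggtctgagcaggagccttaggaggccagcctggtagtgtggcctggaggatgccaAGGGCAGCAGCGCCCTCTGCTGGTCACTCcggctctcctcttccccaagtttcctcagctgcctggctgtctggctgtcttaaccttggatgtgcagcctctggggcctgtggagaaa
Spi1 +32850: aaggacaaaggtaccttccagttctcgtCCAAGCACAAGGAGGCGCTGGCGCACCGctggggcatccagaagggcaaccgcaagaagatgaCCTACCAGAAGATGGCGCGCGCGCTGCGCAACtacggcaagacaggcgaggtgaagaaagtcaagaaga
Spi1 +19200: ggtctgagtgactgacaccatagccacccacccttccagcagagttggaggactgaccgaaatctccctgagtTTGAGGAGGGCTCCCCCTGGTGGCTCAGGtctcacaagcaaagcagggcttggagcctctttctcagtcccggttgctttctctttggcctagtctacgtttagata
Mrc1 +66208: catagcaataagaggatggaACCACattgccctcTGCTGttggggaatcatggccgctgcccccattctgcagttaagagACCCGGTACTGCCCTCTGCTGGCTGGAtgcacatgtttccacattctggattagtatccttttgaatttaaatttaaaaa
Adgre1 -22821: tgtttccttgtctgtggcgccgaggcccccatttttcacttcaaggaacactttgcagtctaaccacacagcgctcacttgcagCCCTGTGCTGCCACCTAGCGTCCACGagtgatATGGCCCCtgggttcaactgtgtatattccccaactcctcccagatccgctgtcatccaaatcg
Cx3cr1 +49419: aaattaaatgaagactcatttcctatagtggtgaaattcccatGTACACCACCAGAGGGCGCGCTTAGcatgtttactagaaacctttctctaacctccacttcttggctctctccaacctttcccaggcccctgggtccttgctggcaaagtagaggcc
Cx3cr1 -3481: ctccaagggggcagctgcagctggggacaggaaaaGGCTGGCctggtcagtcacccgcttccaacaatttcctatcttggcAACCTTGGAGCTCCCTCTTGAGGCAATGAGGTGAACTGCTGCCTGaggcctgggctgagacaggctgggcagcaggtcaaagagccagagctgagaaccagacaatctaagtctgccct
Ptprc +130978: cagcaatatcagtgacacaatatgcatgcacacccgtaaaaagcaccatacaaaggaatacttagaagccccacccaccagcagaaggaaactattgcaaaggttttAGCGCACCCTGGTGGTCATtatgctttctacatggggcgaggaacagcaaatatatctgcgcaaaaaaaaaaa
Most of these picked sites hold the core of the CTCF consensus with at most 1 mismatch in 14 bases, so they do not stand for all distal sites. The share was 31.8% of the 22 distal sites that both libraries found in the member windows, beside 30.3% of all such sites in the genome. On the strand that carries it, the core read CCAGCAGAGGGCGC at Irf8 +60102 and CCACCAGAGGGCGC at Cx3cr1 +49419, both without a mismatch. It read CCAGAAGATGGCGC at Spi1 +32850, where it overlaps the YY1 letters AAGATGGC, and CCAGCAGAGGGCAG at Mrc1 +66208, each with 1 mismatch. CTCF is a DNA-binding protein of nearly all cell types that helps to fold chromosomes into loops.

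A start peak was a peak within 500 bases of any annotated start of a gene, and it was counted when the start peaks of both libraries overlapped each other. By this rule, 2 of the 10 members, Irf8 and Cd14, had a start peak in both libraries, while 56.0% of all protein-coding genes did. This share moved with CpG content and was 19.9% for gene starts poor in CpG (observed over expected CpG below 0.48 within 500 bases of the gene start), 79.0% for the middle class and 92.3% for starts rich in CpG (above 0.75). Of the 10 members, 9 had a CpG-poor start, with ratios from 0.0981 for Lyz2 to 0.353 for Cd14, and Irf8 was in the middle class with 0.735. Within the CpG-poor class, 1 of 9 members had a start peak in both libraries, beside the 19.9% of all such genes. The longer peak lists gave the same 2 members, with 61.0% of all genes and 25.2% of CpG-poor genes called. Which cells gave the start peaks of Irf8 and Cd14 cannot be told in bulk tissue, and other cell types may have given them. Nor can few myeloid cells be told apart there from low accessibility per myeloid cell.

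The per-site FDR lists, which the authors deposited for every stretch of bases with a false discovery rate up to 0.05, reach below the peak lists. At the other 8 members, no base within 500 bases of any annotated start was listed in either library. Irf8 and Cd14 were again the 2 members with listed bases in both libraries, beside 62.3% of all protein-coding genes and 26.6% of the CpG-poor ones. Over the 10 members there were 44 annotated starts, of which 6 had a listed base in both libraries, all of them in Irf8 and Cd14. In the shorter peak lists, counting only a peak at the gene start, that is, the outermost annotated start, gave the same 2 members, beside 50.6% of all genes and 10.7% of CpG-poor genes.

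**Figure D1:**
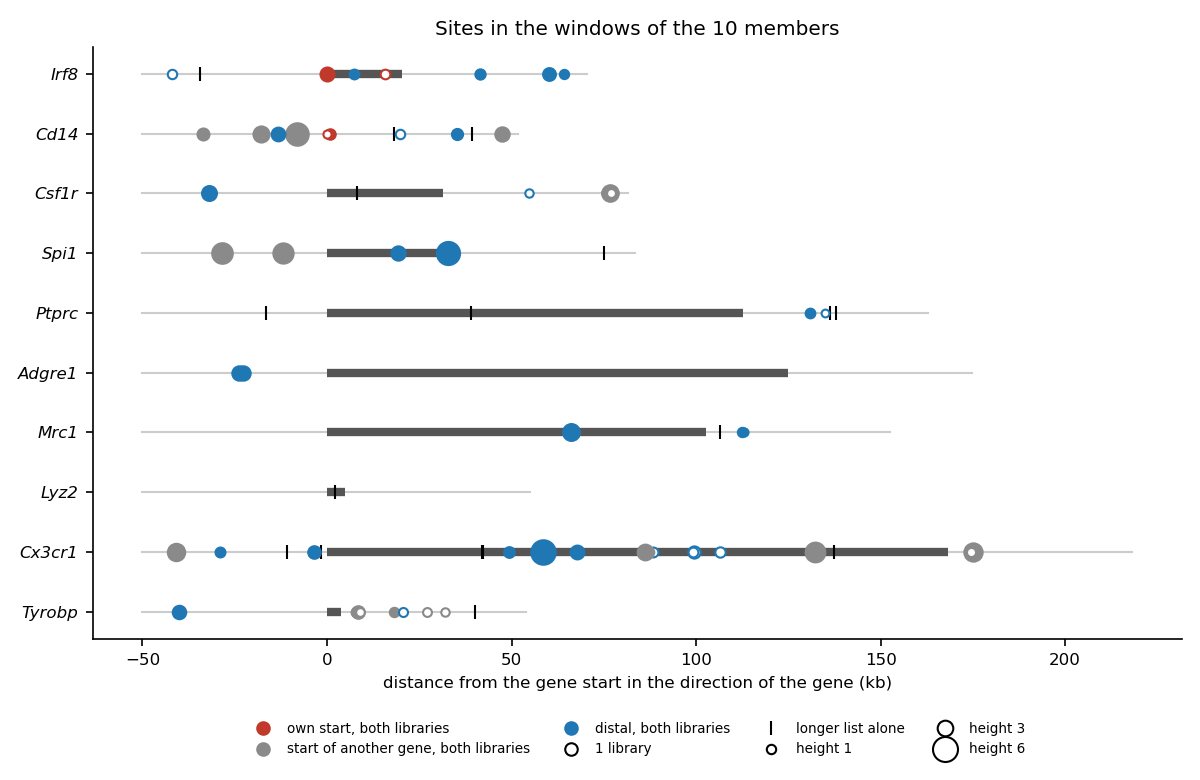
Accessible sites in the gene body plus 50 kb on each side of the 10 members, by distance from the gene start in kb along the direction of the gene (thick bar, gene body). Circle size gives the peak height (mean of the libraries that have the site), and filled circles are sites of both libraries. Ticks are sites of the longer list alone, except those close to a site of the shorter list, which are not drawn. Irf8 and Cd14 are the only rows with a filled red circle, a site at the member's own start, and Lyz2 has a single tick.

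Irf8 encodes a transcription factor of monocytes, macrophages, dendritic cells and B cells. Its start peak had a height of 2.74 in replicate 1 and 2.20 in replicate 2 (chr8:120736181-120736440 and chr8:120736141-120736440), which lie at percentiles 78.8 and 78.0 of all peaks of their library. Both libraries thus placed it in the upper part of their own list. The median gene with a start peak had 3.02 in replicate 1 and 2.91 in replicate 2, so Irf8 was below the middle of open starts in both. The lowest deposited FDR within 500 bases of the Irf8 start was 1.42e-14 in replicate 1 and 6.83e-19 in replicate 2. A second site followed 333 bases into the gene with heights of 1.37 and 0.929. Another, at an annotated start 15851 bases inside the gene, was a peak of replicate 2 alone with a height of 1.09, and the longer list added it in replicate 1 with 0.952.

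The Irf8 window also held 4 distal sites found in both libraries, a distal site being one that lies outside 500 bases of every annotated start of any gene. The highest was Irf8 +60102, printed above, with heights of 2.60 and 1.60. Irf8 +41552 had 1.37 and 1.20, Irf8 +64352 had 1.11 and 0.804, and the site 7322 bases into the gene had 1.02 and 1.25. The start site exceeded each of them in both libraries. For all 4, Irf8 was the gene with the nearest protein-coding start.

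Spi1 encodes PU.1, the ETS factor on which macrophage development depends. No peak lay at any of its 4 annotated starts, which fall into an outer pair and, 13.7 kb further in, an inner pair. The gene body nevertheless held 2 sites in both libraries. Spi1 +32850, in exon 5 of transcript Spi1-201, had heights of 6.25 in replicate 1 and 4.55 in replicate 2, at percentiles 99.0 and 95.4 of all peaks. It was the highest peak of the Spi1 window in replicate 1, whereas in replicate 2 the start of Slc39a13, a zinc transporter gene, was higher with 4.98. Its nearest protein-coding start was that of Mybpc3, at 2904 bases, and not one of Spi1. Spi1 +19200, in intron 2 and 4810 bases from the nearest Spi1 start, had heights of 2.75 and 2.38. Accessibility over the Spi1 gene was thus found at these internal sites and at none of its starts.

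**Figure D2:**
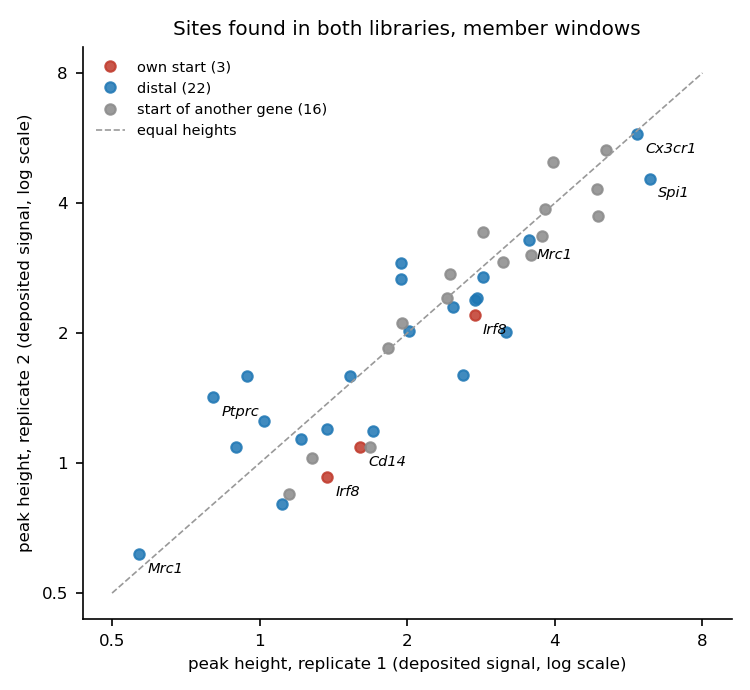
Heights of the 41 sites of the member windows that both libraries found, replicate 1 on the horizontal and replicate 2 on the vertical axis, both logarithmic with base 2 and in the deposited signal. Points are sites at a member's own start (red), distal sites (blue) and starts of other genes (grey), and the dashed line marks equal heights; Cx3cr1 and Spi1 label the highest distal sites, and the own-start sites of Irf8 and Cd14 lie between 0.929 and 2.74.

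Among the surface receptors, Cd14, the co-receptor for bacterial lipopolysaccharide, was the second member with a start peak in both libraries. Its peak had a height of 1.60 in replicate 1 and 1.09 in replicate 2 (chr18:36725821-36726420 and chr18:36726181-36726460), at percentiles 55.1 and 47.1 of all peaks. These heights were lower than those of Irf8 in both libraries. The peak was centred 678 bases into the gene in replicate 1 and 478 bases in replicate 2, inside exon 2 of this short gene. A peak nearer the gene start, 88 bases into the gene, was found in replicate 2 alone with a height of 0.607. With a window of 250 bases in place of 500, Cd14 no longer counted and Irf8 alone was left. These start peaks are part of a joined site of 1100 bases (chr18:36725361-36726460), which takes in further peaks of replicate 2. Over this joined site lay 5 footprints in replicate 1 and 12 in replicate 2. None of them overlapped between the libraries. Footprints were counted only inside peaks of their own library, and the replicate 1 peak covers only part of the joined site. Footprints of replicate 2 outside that part thus had none to overlap. At the 300-base Irf8 start site, 3 footprints overlapped. The share over all start sites was not computed, so these counts have no background. A footprint inside the start peak of both libraries was nevertheless present for these same 2 members, beside 54.1% of all genes and 18.6% of CpG-poor genes.

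The highest peak of the Cd14 window lay at the start of Tmco6, the next gene upstream, with 5.09 in replicate 1 and 5.30 in replicate 2. Among its distal sites, Cd14 -13162, in an intron of Tmco6, had 2.48 and 2.30, and Cd14 +35251 had 1.53 and 1.59. In both libraries this neighbouring start was higher than the Cd14 peak.

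Csf1r encodes the receptor for colony-stimulating factor 1, the growth factor of macrophages. It had no peak at any of its 6 annotated starts and none over its gene body in the shorter lists. The longer list of replicate 2 held a 75-base peak in intron 2 of transcript Csf1r-201 (chr18:61108612-61108686), with a height of 0.509 at percentile 27.9 of that list, and replicate 1 had none there. The highest peak of the window lay at the start of Hmgxb3, with 3.57 in replicate 1 and 3.04 in replicate 2. The distal site of both libraries, upstream of the gene and inside an intron of Pdgfrb, had 2.86 and 2.70. In the shorter lists, the accessible sites around Csf1r thus lay inside neighbouring genes or at their starts. Which gene the distal site acts on was not tested.

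Cx3cr1, the fractalkine receptor of monocytes and tissue macrophages, had no peak at its 3 annotated starts. The site Cx3cr1 -3481, upstream of the gene and with Cx3cr1 as its nearest coding gene, had heights of 2.02 in replicate 1 and 2.03 in replicate 2. The annotated gene record spans 168.3 kb and runs over other genes, so its window of 268.3 kb held 18 sites, the most of any member, of which 11 were found in both libraries. The highest of them, Cx3cr1 +58619, had 5.90 and 5.78 and lay 7238 bases from the start of Xirp1, which encodes an actin-binding protein of striated muscle. The middle of this site lay in an exon of Gm49427, and its 280 bases held 37 CpG dinucleotides. Among the starts of other genes, the one shared by Gorasp1 and Ttc21a had 4.91 and 3.73, and that shared by Wdr48 and Gm2449 had 3.82 and 3.88, so that a different one was the highest in each library. None of the 11 lay at a Cx3cr1 start, and Cx3cr1 -3481 was the only one whose nearest coding start was that of Cx3cr1.

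Mrc1, the mannose receptor of tissue macrophages, had no start peak and a strong site in intron 15. This site, Mrc1 +66208, had heights of 3.54 in replicate 1 and 3.28 in replicate 2, at percentiles 87.5 and 88.6, and was the highest peak of the window in both. The other pair of sites, 112428 and 112913 bases from the start and past the end of the gene, had heights from 0.567 to 1.09. Adgre1 encodes F4/80, the antigen long used to stain mouse macrophages. It had no peak over its start or its body in either list of either library. The window held 2 sites, Adgre1 -23761 with heights of 2.78 and 2.41 and Adgre1 -22821 with 3.17 and 2.01, which lie less than 1000 bases apart between Vav1 and Adgre1. For both genes, the accessible sites lay far from the start.

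Ptprc encodes CD45, the phosphatase carried by nearly all white blood cells. None of its 12 annotated starts had a peak, and its window of 212.8 kb held 1 site of both libraries, Ptprc +130978, past the end of the gene. That site was low in replicate 1, with a height of 0.805 at percentile 16.0, and higher in replicate 2, with 1.42 at percentile 61.2. In the longer lists both libraries shared a site in intron 2 of transcript Ptprc-203, with heights of 0.374 and 0.464 at percentiles 5.56 and 22.7 of those lists. Tyrobp encodes DAP12, the adaptor through which receptors such as TREM2 signal. Its own gene held no peak in any list. The highest peaks of its window were at a start of Nfkbid, which encodes an inhibitor of NF-kB, with 1.95 in replicate 1 and 2.11 in replicate 2, and at the distal site Tyrobp -40010, with 1.94 and 2.66.

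Lyz2 encodes lysozyme, which breaks bacterial cell walls, and is among the most abundant transcripts of macrophages and neutrophils. Its window of 105 kb held no peak in the shorter list of either library. The longer list of replicate 2 held a 95-base peak in intron 2 (chr10:117280181-117280275) with a height of 0.411, at percentile 16.1 of that list, and replicate 1 had none. Across the longer lists, the peaks over the bodies of Csf1r, Lyz2 and Ptprc thus had heights from 0.374 to 0.509, at percentiles from 5.56 to 27.9 of their lists. They were the only peaks over those 3 gene bodies in any list.

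The 10 windows together held 49 peaks in replicate 1 and 56 in replicate 2, which made 59 sites when overlapping peaks were joined. Of these, 41 (69.5%) were found in both libraries, beside 61.7% of the 51228 sites of the whole genome. The 41 comprised 3 sites at a member's own start, 16 at starts of other genes and 22 distal sites. The own-start sites had median heights of 1.60 in replicate 1 and 1.09 in replicate 2, and the distal sites 1.94 and 1.80. The starts of other genes ran from 1.15 to 5.09 and from 0.848 to 5.30. Most sites of both libraries in these windows were thus neighbouring starts or distal sites. Over the whole genome, 15562 of the 31612 sites found in both libraries were distal. The windows take in starts of other genes, and the same split was not made for the windows of all genes. A member had a median of 2 shared distal sites (mean 2.2), all protein-coding genes had a median of 1 (mean 1.55), and 1 of 10 members (Lyz2) had none, beside 35.7% of all genes. Per 100 kb of window, members had a median of 1.22 shared distal sites and all protein-coding genes 0.845. In the longer lists this order turned, with 1.51 per 100 kb for members and 1.61 for all genes. In the longer lists the windows held 84 sites, of which 61 were found in both libraries, and these comprised 4 at a member's own start, 23 at starts of other genes and 34 distal sites. The added own-start site was the internal start of Irf8.

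**Figure D3:**
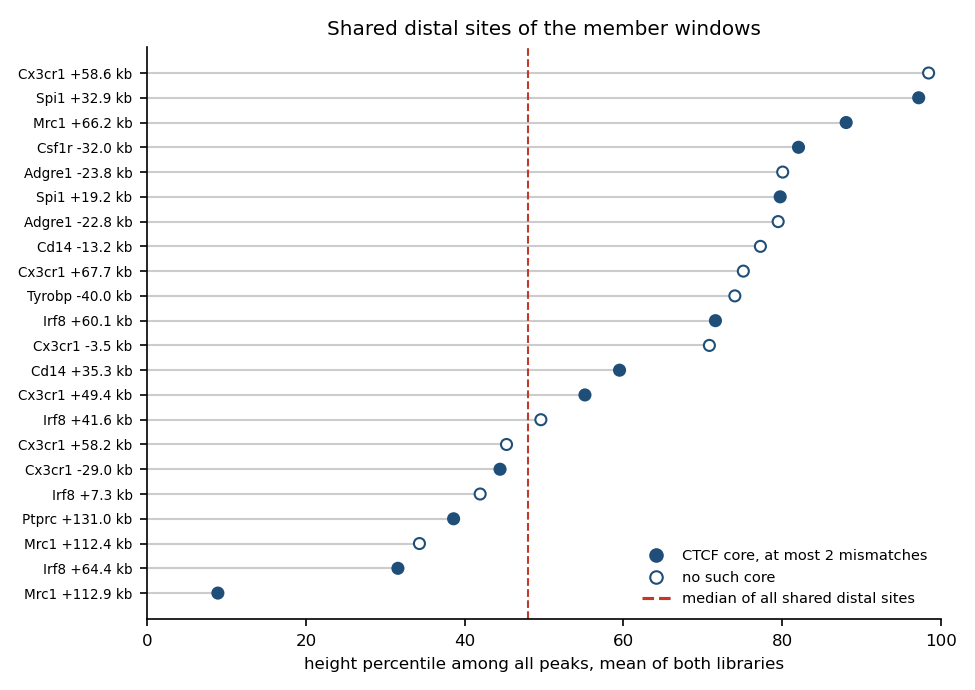
Height percentile, averaged over both libraries, of the 22 distal sites of the member windows, ordered from low to high and labelled by gene and distance from the gene start in kb. Filled points hold the CTCF core with at most 2 mismatches, and the dashed line is the median of all 15562 shared distal sites, 48.0; 15 of the 22 points lie to the right of it.

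The 22 shared distal sites had a median height percentile of 71.2, and the 15562 shared distal sites of the whole genome had a median of 48.0. Their percentiles ran from 8.91 at the lower of the Mrc1 sites past the gene to 98.4 at Cx3cr1 +58619, and 15 of the 22 lay above the median of all sites. For 11 of the 22, the nearest protein-coding start was that of a member. Those 11 had percentiles of 8.91, 31.6, 34.3, 38.6, 42.0, 49.6, 70.8, 71.6, 79.5, 79.7 and 88.1. The sites nearest to starts of other genes had 44.5, 45.3, 55.1, 59.5, 74.0, 75.1, 77.3, 80.1, 82.1, 97.2 and 98.4. The high median of the 22 thus includes sites that lie nearer to other genes. The log2 ratio of replicate 1 over replicate 2 had an SD of 0.42 over the 22 sites and of 0.35 over all shared distal sites. A footprint overlapping between the libraries was present in 20 of the 22 sites (90.9%), beside 82.4% of all. The widest footprint of a site had a median of 28 bases in replicate 1 and 26.5 in replicate 2, beside 20 and 21 bases over all, and it reached 15 bases in both libraries in 17 of the 22 (77.3%), beside 54.7% of all. By these medians, the widest footprints of member sites were wider than those of distal sites in general.

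The 22 sites were also searched for the letters of factors that act in macrophages and of some that act widely. Within the central 200 bases, searched on both strands, the PU.1 letters GAGGAAGT were in 0 of the 22 sites, beside 1.63% of all shared distal sites. The interferon regulatory factor letters GAAANNGAA were in 1 site, beside 4.59% of all, and the joint ETS and IRF letters GGAANNGAA, which can overlap them, were in 0, beside 5.13%. The C/EBP letters TTNNGCAA were in 1 site, beside 9.29% of all, and the RUNX letters TGTGGTT were in 3 (13.6%), beside 4.39%. Of the other letters searched, NF-kB (GGGANNNCC) was in 3 sites (13.6%), beside 11.4% of all, and SP/KLF (GGGCGG) in 4 (18.2%), beside 2336 of the 15562 sites over all. AP-1 (TGANTCA) was in 1 site, beside 12.4%, and YY1 (AAGATGGC) in 2 (9.09%), beside 1.53%. With 22 sites, these shares rest on counts of 0 to 4, and no test was made. None of the 7 RefSeq promoter entries found for 5 of the members (Ptprc, Mrc1, Irf8, Cx3cr1 and Lyz2) held the PU.1, IRF or C/EBP letters, which are in 3.11%, 8.21% and 10.03% of all 20150 promoters searched. They held neither the joint ETS and IRF letters nor the AP-1 letters, which are in 1542 and 1410 of all promoters. The RUNX letters were in 1 of the 7, at Lyz2, beside 4.66% of all promoters, and the YY1 letters in 1, at Irf8, beside 3.11%. The NF-kB letters were in 3, beside 20.8%, and the SP/KLF letters in 2, beside 47.8%. Each factor was searched by 1 fixed set of letters, here and in the distal sites. A count of 0 thus does not show that a factor has no site there. The variant CAGGAAGT, on the other strand of the Lyz2 sequence printed above, did not count for PU.1.

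The CTCF core, searched by its 14 positions with at most 2 mismatches, was in 11 of the 22 sites and in 49.1% of all shared distal sites. With at most 1 mismatch it was in 7 (31.8%), beside 30.3% of all, and without a mismatch in 3 (13.6%), beside 7.46%. In windows 1000 bases to either side, the core with at most 2 mismatches was in 2 of 44 (4.55%), beside 3.70% over all sites. The share in the member windows was near that of distal sites in general. Over all shared distal sites, the core overlapped a footprint of both libraries in 6813 of the 7640 sites that held it. In the member windows it did so in 10 of the 11 sites. They were Spi1 +19200 and +32850, Mrc1 +66208, Cx3cr1 +49419 and -28998, Irf8 +60102 and +64352, Ptprc +130978, and 1 site each in the windows of Cd14 and Csf1r.

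A list of 40 further myeloid genes was set beside the 10 members. Of these, 11 had a start peak in both libraries, beside 56.0% of all protein-coding genes. They were all 6 genes with a CpG-rich start (among them Fcgr3, Maf, Cebpa, Cebpb and Zbtb46), 2 of 3 in the middle class (Mertk and Kit) and 3 of 31 with a CpG-poor start (Csf2ra, Coro1a and H2-Aa). Cebpa had the highest start peak, with 5.65 in replicate 1 and 5.63 in replicate 2. It encodes a transcription factor that cells outside the myeloid lineage also use. H2-Aa, which encodes a chain of the class II molecules of antigen-presenting cells, had 2.01 and 2.90 at its gene start. Coro1a, an actin regulator of white blood cells, had 3.41 and 2.21 at an annotated start inside the gene, 6477 and 6487 bases from its gene start.

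The other genes of this list had no start peak in both libraries, and most had none in either. Of the genes called, Fcgr3, a low-affinity Fc receptor gene, had 3.27 and 2.16, with its peak 345 and 335 bases into the gene, where the annotation also places the start of a microRNA. Of the genes not called, the neutrophil gene S100a8 had a peak in replicate 1 alone with 0.556, and Nckap1l, a regulator of the white cell cytoskeleton, in replicate 2 alone with 0.446. Cd74, the invariant chain of class II molecules, had 0.873 and 0.661 in the longer lists alone. No start peak in any list was found for Aif1, Itgam, Itgax, Fcgr1, C1qa, C1qb, C1qc, Trem2, Csf3r, Ccr2, Cd163, Lyve1 or the mast cell gene Cpa3. The counts of the 40 genes thus followed the CpG class of the gene start, as did those of all genes.

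**Figure D4:**
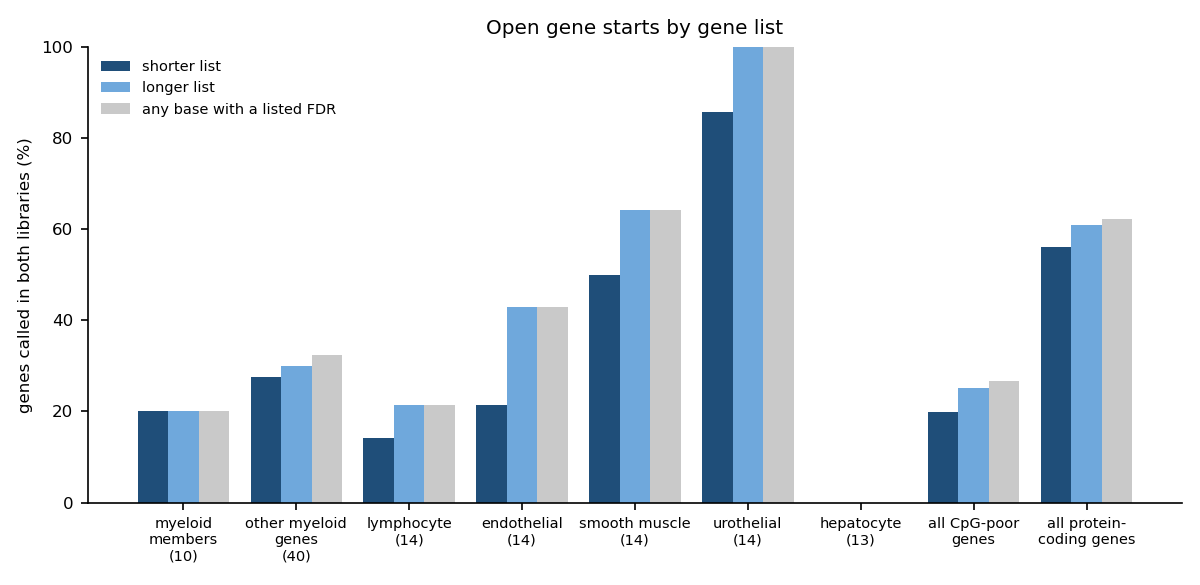
Share of genes called in both libraries at their starts, in percent, for the 10 myeloid members, the further cell type lists (number of genes in brackets), all CpG-poor genes and all protein-coding genes. Bars give the shorter peak list, the longer peak list and any base with a listed FDR; the members stay at 2 of 10 in all 3, and the hepatocyte list stays at 0 of 13.

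Marker lists of other cell types were counted in the same way. Like the members, they were chosen with earlier results of these data known, so their order is a description and not an independent scale. A start peak in both libraries was found for 2 of 10 members, 2 of 14 lymphocyte genes, 3 of 14 endothelial genes, 7 of 14 smooth muscle genes, 12 of 14 urothelial genes and 0 of 13 hepatocyte genes, a cell type that the bladder lacks. Counting only genes with a CpG-poor start gave 1 of 9 members, 1 of 13 lymphocyte, 1 of 8 endothelial, 2 of 7 smooth muscle, 8 of 10 urothelial and 0 of 13 hepatocyte genes. The longer lists moved the lymphocyte count to 3, the endothelial count to 6, the smooth muscle count to 9 and the urothelial count to 14. They left the members at 2 and the hepatocyte genes at 0. With only a peak at the gene start counted, the shorter lists gave 2 members, 0 lymphocyte genes and 1 endothelial gene. For smooth muscle, urothelial and hepatocyte genes this count was 6, 11 and 0. Whether the members differ from the lymphocyte or endothelial list was not tested. In these lists, the 10 members left visible start peaks at Irf8 and Cd14. That of Cd14 was centred inside the gene and no longer counted with a 250-base window. Which cells the peaks at Irf8 and Cd14 came from was not tested. The members also left weak peaks of the longer lists inside Csf1r and Lyz2 in 1 library and inside Ptprc in both. Their windows further held distal sites, whose share with the CTCF core was near that of all distal sites.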

How the data were processed

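DNase-seq of bladder tissue gave 2 libraries of 1 group. Every list was made by the authors, 1 library at a time, out of filtered mm10 alignments, per the file headers and accompanying text. The aligner and the callers were not given in the sources used here. Peak heights are a signal that the authors deposited, with no scale stated, so depth is unknown and no interval is given. The per-site FDR and the footprint value (0.01 in every row) are deposited p-values or FDRs. The animals are F1 hybrids, and castaneus reads were set on a C57BL/6 reference. That can lower heights where the parents differ.

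Peaks were set beside GENCODE M21 with Python 3.11.15, pandas 2.3.3 and numpy 2.4.6. A window was the gene body plus 50 kb. Overlap meant at least 1 base, and sites were joined overlapping peaks. A percentile is the rank of a peak among all peaks of its list. Start calls were compared with 21938 coding genes on chromosomes with sequence, and motif letters were counted in GRCm38.p6, which shares coordinates with mm10. The code for the start calls and the CTCF core was checked on planted peaks and planted cores. That check does not measure how sensitive the authors' peak calls are. The members and lists were chosen with earlier results of these data known, and the CTCF core after seeing footprints. All members are named, with the highest peak and the distal sites of each window and the further myeloid genes with a start peak, except for a result not reported here.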

Additional observations from a re-analysis of the deposited data

How the results depend on the processing

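Of 48 recomputed values of the main counts and of the median percentile, 32 kept within 1.5 times the main count or within 1 SD between the libraries (4.44 percentile points). Members with a start peak in both libraries, members with one at the gene start and members with a footprint inside it were each 2, and each fell to 1 (Irf8) with the stronger 50% of peaks and with an overlap of at least 50% of both peaks; with a 250-base window the start peak and footprint counts also fell to 1. Shared distal sites were 22, against 34 in the longer list, 14 with the stronger 50% of peaks, 11 with windows of 10 kb and 11 when the nearest coding start had to be a member. Their median percentile was 71.2, against 66.7 in the longer list and 78.4 with the stronger 50% of peaks, which its construction raises. With 1 library left out, the start counts were 2 throughout, the further myeloid genes 12, the distal sites 25 to 30 and their median percentile 59.1 to 63.7. The count of 11 further myeloid genes ran from 10 to 12 over all alternatives. The CTCF core, chosen after seeing the data, went from 11 sites to 7 and 3 with fewer mismatches allowed. No paired analysis was possible because there is 1 group and no result comes from a test. For the other values that moved, the cause was not tested. Depth is unknown, so an uncalled start is one not detected in these lists.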
